A study of Mus musculus with 6 samples.

Results

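The simple epithelial keratins followed here were Krt7, Krt8, Krt18, Krt19 and Krt20, taken by gene symbol as 5 of the 17866 genes in the deposited table and 5 of its 52 numbered keratin genes. Each of the 5 symbols had a single row, with values in all 6 libraries. Keratins build the intermediate filaments of epithelial cells from pairs of a type I and a type II protein. Keratin 8 (type II) and keratin 18 (type I) form the pair of simple, single-layered epithelia such as those of liver, gut and glands. Keratin 7 (type II) belongs to ducts and glands, keratin 19 (type I) is found in simple epithelia and in the basal cells of some stratified ones, and keratin 20 (type I) marks gut lining, urothelium and Merkel cells. The corneal epithelium is stratified and builds its filaments mainly from other keratins, with keratin 12 as its own type I protein.

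RNA came from the separated corneal epithelium of C57BL/6 mice at 6 months of age, with 3 libraries labelled wild type (WT) and 3 labelled Rela-/- (KO), each from an independent biological sample. In the study the mutant mice were Krt14-Cre; Rela f/f, so that Rela, which encodes the p65 subunit of NF-κB, was deleted in cells that had expressed Cre from a keratin 14 promoter. By the lineage tracing in the study these include the epithelia of the cornea, limbus and conjunctiva and the meibomian glands, so "KO" is a deletion in K14-lineage epithelium and not in the whole animal. Whether the WT mice carried Cre or the floxed allele is not given in the sources used here.

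The libraries held between 20158404 and 20880347 estimated counts. Rela kept 16.5% of its WT level in KO, without overlap between groups. The labelled tissue was checked with 6 corneal genes (Krt12, Pax6, Aldh3a1, Tkt, Slurp1 and Upk1b), which summed to between 68000 and 68800 CPM (counts scaled to library size with TMM factors) in the WT libraries and between 11600 and 14300 CPM in the KO libraries. All 6 were detected in every library and all 6 were lower in KO at an adjusted p of 0.05. The KO libraries differed among themselves, with KO replicate 1 carrying the highest level of epidermal genes. WT replicate 2 had 1180 CPM of Krt14, beside 238 and 318 CPM in the other WT libraries. Values without these libraries are given below where they bear on a member.

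The 5 genes lie in the keratin clusters of the mouse (GRCm38, as in the deposited coordinates). Krt7 (gene 110310, chr15:101412403-101427806, plus strand), Krt8 (gene 16691, chr15:101996711-102004342, minus strand) and Krt18 (gene 16668, chr15:102028216-102032026, plus strand) are on chromosome 15. Krt19 (gene 16669, chr11:100140810-100145926, minus strand) and Krt20 (gene 66809, chr11:99428385-99438153, minus strand) are on chromosome 11. Krt8 and Krt18 are neighbours that are read away from each other, with 23.9 kb between their starts, and Krt18 is the only type I gene of this set that sits beside the type II cluster. Krt20 lies 5.79 kb from Krt12, and Krt19 lies 4.86 kb from Krt15.

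Since the libraries compare tissue with and without Rela, the stretch of 100 bases before the start of each gene is shown, from RefSeq windows on GRCm38.p6 that were found for 4 of the 5 genes (all but Krt19). Capitals mark the NF-κB (κB) consensus, TATAA, and GGGCGG or its reverse complement. The sequences read 5′ to 3′ on the strand of the gene and cover chr15:101412303-101412402 (Krt7, plus), chr15:102004343-102004442 (Krt8, minus), chr15:102028116-102028215 (Krt18, plus) and chr11:99438154-99438253 (Krt20, minus).
Krt7: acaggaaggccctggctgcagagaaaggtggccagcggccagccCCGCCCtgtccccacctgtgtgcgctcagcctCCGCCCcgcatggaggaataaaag
Krt8: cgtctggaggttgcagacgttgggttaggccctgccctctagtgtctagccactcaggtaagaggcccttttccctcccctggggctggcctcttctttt
Krt18: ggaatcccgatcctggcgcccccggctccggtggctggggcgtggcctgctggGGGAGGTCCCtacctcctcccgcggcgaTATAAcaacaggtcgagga
Krt20: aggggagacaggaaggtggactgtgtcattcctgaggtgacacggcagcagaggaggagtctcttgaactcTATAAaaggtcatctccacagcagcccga

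Both strands of the 250 bases before each start were searched. The κB consensus matched in Krt18 alone among these 4 genes, at the same place on both strands and beginning 47 bases before the start, while 7.25% of all 32851 RefSeq windows of this length held a match. TATAA was found 19 bases before the start of Krt18 and 29 bases before that of Krt20, beside 22.8% of all windows. Krt7 held GGGCGG at 4 places, 141, 128, 56 and 24 bases before its start. Of all windows, 32.7% held it at least once, and the share with 4 places was not computed. The letters TGANTCA, an AP-1 site, were found in none of the 4 windows and in 6.75% of all windows. A match of letters is a description of the sequence and not a measured binding site.

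In WT epithelium the members covered a wide range of levels. FPKM, which divides counts by gene length and library total and so allows genes to be compared, was 99.4, 98.4 and 119 for Krt19, with a mean of 106 ± 11.6 (SD, n = 3). Krt7 stood next, with 39.0, 27.0 and 37.1 FPKM, and Krt8 followed with 5.77, 5.42 and 8.22 FPKM. Krt18 had 1.67, 1.66 and 1.90 FPKM, and Krt20 0.07, 0.15 and 0.10 FPKM. The ranges of neighbours in this order did not overlap in WT. In KO the order of the means was the same, but Krt8 (1.42, 3.63 and 4.67 FPKM) and Krt18 (1.42, 0.89 and 2.68 FPKM) overlapped. Among the 52 numbered keratin genes, ordered by mean FPKM, Krt19 held rank 10 in WT and 14 in KO, Krt7 rank 13 and 17, Krt8 rank 15 and 22, Krt18 rank 21 and 23, and Krt20 rank 28 and 36.

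**Figure D1:**
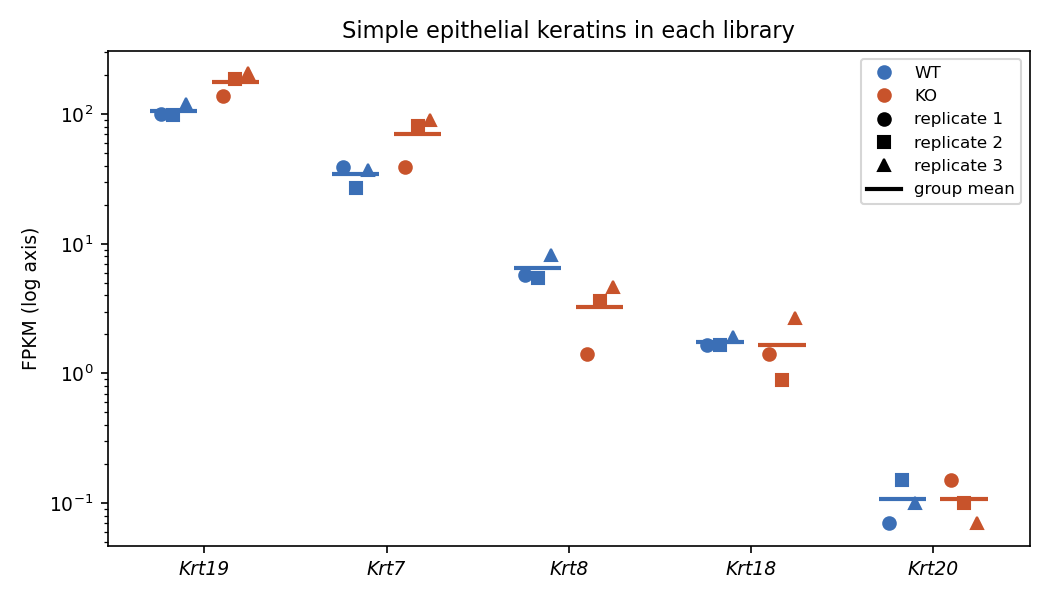
FPKM of the 5 simple epithelial keratins on a log axis, with a point for each library (blue WT, red KO, marker shape for the replicate number) and a bar for the group mean. Krt19 is highest in both groups, the KO points of Krt19 lie above the WT points, those of Krt8 lie below, and Krt18 and Krt20 overlap. For Krt7, KO replicate 1 (39.06 FPKM) is level with the highest WT library (39.04 FPKM) and the other KO points lie above.

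The main comparison asked how these keratins differed between KO and WT epithelium. Krt7 and Krt19 rose in KO, by 2.19-fold and 1.73-fold in mean CPM. Krt8 had 53.3% of its WT level, but did not pass the test. Krt18 and Krt20 overlapped between groups, and Krt20 had too few counts to be tested. Thus 2 of the 4 tested members were called higher and 0 lower at an adjusted p of 0.05 (edgeR quasi-likelihood test, Benjamini-Hochberg adjustment over 13305 genes). Over all genes tested, 62.0% were called, 31.8% higher and 30.2% lower, so a count of 2 in 4 is near the background and says nothing about the members as a group. Their median log2 fold change was 0.41, beside 0.006 for all genes tested. In bulk RNA, fewer cells of a type and less RNA per cell cannot be told apart, and this holds for each value below.

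Krt19, the most abundant member, was counted at 2597, 2637 and 3129 in the WT libraries, against 3527, 4503 and 5399 in the KO libraries. These counts correspond to 119, 123 and 148 CPM for WT and to 179, 226 and 269 CPM for KO, so each KO library lay above each WT library. A gap of this kind in either direction was found for 68.6% of genes tested, and for 34.7% with KO above WT. Krt19 thus rose by a log2 fold change of 0.79, with an SE of 0.159 and an adjusted p of 0.00266 (edgeR), larger than the spread between replicates. It lay between 0.64 and 0.93 in 15 alternative fits and was called in all 15.

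Krt7, the type II keratin of ducts and glands, was counted at 1275, 884 and 1222 in the WT libraries, against 1281, 2591 and 2996 in the KO libraries. Its CPM values were 58.4, 41.1 and 57.8 for WT and 64.8, 130 and 149 for KO. KO replicate 1 thus lay just above the WT libraries, whereas the other KO libraries lay well apart from them. Krt7 rose by a log2 fold change of 1.13, with an SE of 0.284 and an adjusted p of 0.00828 (edgeR). The value was 1.41 (adjusted p = 4.14e-04, edgeR) without KO replicate 1, and 0.99 (adjusted p = 0.0239, edgeR) without WT replicate 2, the lowest library for Krt7. All 15 alternative fits called it higher.

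Krt8, the type II partner of keratin 18, was counted at 215, 203 and 309 in the WT libraries, against 53, 132 and 176 in the KO libraries. The CPM values were 9.84, 9.44 and 14.6 for WT against 2.68, 6.62 and 8.77 for KO, so that the groups did not overlap, as was the case for 33.9% of genes tested with KO below WT. The log2 fold change of -0.91 had an SE of 0.370 and a 95% interval from -1.75 to -0.06, and its adjusted p was 0.0612 (edgeR). The value depended on KO replicate 1, the lowest library, and was -0.55 (adjusted p = 0.0855, edgeR) without it. It also depended on WT replicate 3, the highest library, and was -0.67 (adjusted p = 0.195, edgeR) without that library. Without KO replicate 3, the highest KO library, it was -1.28 (adjusted p = 0.0222, edgeR). Of 15 alternative fits 6 gave an adjusted p of 0.05 or less, with adjusted p-values from 0.0178 to 0.195 over all 15.

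The level of Krt8 also carries an uncertainty of counting, since it has a near-identical pseudogene. Of the 1909 words of 50 bases (the read length) in its longest GENCODE M21 transcript, 26.9% were also present in the pseudogene Krt8-ps. Its estimated counts lay more than 0.05 from a whole number in 2 of 6 libraries. Krt18 shared 0.72% of its words with transcripts of other genes, while Krt7, Krt19 and Krt20 shared none of theirs exactly. By the same measure the counts were nevertheless not whole in 6 of 6 libraries for Krt19 and in 1 of 6 for Krt7.

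Krt18, the type I partner of keratin 8, was counted at 48, 48 and 55 in the WT libraries, against 41, 25 and 78 in the KO libraries. In CPM the WT libraries stood at 2.2, 2.23 and 2.60 and the KO libraries at 2.08, 1.25 and 3.88, so that the KO values spanned the WT values. Its log2 fold change of 0.04 had an SE of 0.380, an adjusted p of 0.940 (edgeR) and a 95% interval from -0.83 to 0.91, so a difference within this interval was not resolved by these libraries. The sign of the value depended on the scaling and on KO replicate 3, without which it was -0.49 (adjusted p = 0.215, edgeR). No alternative fit called Krt18.

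Krt20, the keratin of gut lining and Merkel cells, was counted at 3, 6 and 4 in the WT libraries, against 6, 4 and 3 in the KO libraries, a sum of 13 in each group. Values of 3 counts, the floor used here, corresponded to between 0.144 and 0.149 CPM before TMM scaling. The ratio of the count rates, KO over WT, was 1.01 with an exact 95% interval from 0.431 to 2.36, which covers counting error only. Krt20 was left out of the main test by the filter on low counts. Without the filter its log2 fold change was 0.09 (adjusted p = 0.918, edgeR).

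**Figure D2:**
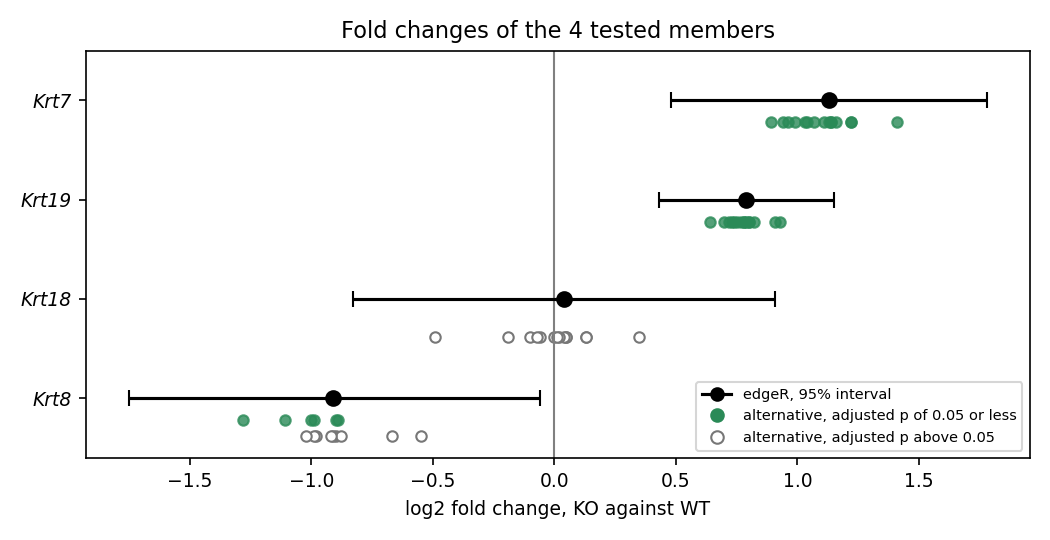
Log2 fold change, KO against WT, of the 4 tested members. Black points and bars give the edgeR value with its 95% interval, and small points below them give the alternative fits, green where the adjusted p was 0.05 or less and open where it was above. Every alternative for Krt7 and Krt19 is green, those for Krt8 are split, and those for Krt18 are open and lie on both sides of 0.

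At the stricter threshold of the study, where the adjusted p may not exceed 0.001 and the fold must reach 2, edgeR called 19.8% of genes tested and 0 of the members. In the same fit 3 members (Krt7, Krt8 and Krt19) had an unadjusted p under 0.05. This cut is looser than an adjusted p of 0.05, which 62.0% of genes tested passed. Its own share over all genes was not computed. DESeq2 placed 1 member, Krt7, at the stricter threshold, with an adjusted p of 6.78e-05, and so did edgeR without KO replicate 1. The shares of all genes at that threshold in these fits were not computed.

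The balance among the members was then described without a test, since it combines their values. Krt19 made up 71.3% ± 3.06 of the summed FPKM of the 5 genes in WT and 70.9% ± 5.0 in KO (SD, n = 3 per group), and Krt7 made up 23.1% ± 3.27 and 27.1% ± 4.71. The ratio of type I (Krt18, Krt19 and Krt20) to type II FPKM (Krt7 and Krt8) was 2.67 ± 0.415 in WT and 2.62 ± 0.730 in KO. The Krt8 to Krt18 ratio was 3.46, 3.27 and 4.33 in the WT libraries and 1.00, 4.08 and 1.74 in the KO libraries. The ratio was thus close to even in KO replicate 1 and was 4.08 in KO replicate 2, within the range of the WT libraries. KO replicate 2 had the lowest level of Krt18, whereas KO replicate 1 had the lowest level of Krt8. The ratio of the 2 type II members, Krt7 over Krt8, was 6.77, 4.98 and 4.52 in WT and 27.5, 22.4 and 19.4 in KO.

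Together the 5 genes made up 0.0203% ± 0.00221 of the WT counts and 0.0337% ± 0.00907 of the KO counts (SD, n = 3 per group). Their share of the counts of all numbered keratins was 0.237% ± 0.0361 in WT and 0.237% ± 0.0756 in KO. Per library this share was 0.240%, 0.199% and 0.271% in WT and 0.159%, 0.241% and 0.310% in KO. KO replicate 1 was lowest and KO replicate 3 highest, with the WT libraries between them.

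The other keratins give the setting of these values. Of the 52 numbered keratin genes 27 were tested, of which 20 were called higher and 2 lower, with a median log2 fold change of 1.57. Over all genes tested, 31.8% were called higher and 30.2% lower, which is the background for this count and for each list below. Both lower keratin genes were corneal or basal keratins, Krt12 with a log2 fold change of -2.36 and Krt5 with -1.35. Krt14, the basal partner of keratin 5, had 4.15, and Krt15 did not pass (0.15, adjusted p = 0.483, edgeR). The mucosal keratins Krt4 and Krt13, which pair in conjunctiva and oral epithelium, had 7.19 and 4.28. In FPKM, Krt13 was 11.9 ± 1.39 times the level of Krt19 in WT and 137 ± 48.1 times in KO (SD, n = 3 per group). Krt12 was 213 ± 27.0 times the level of Krt19 in WT and 23.3 ± 1.57 times in KO.

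Direct neighbours of the members showed no common direction. Krt78, whose start lies 86 bases beyond the end of Krt8 on the same strand, rose with a log2 fold change of 1.24 (adjusted p = 0.0112, edgeR). Krt80, the tested neighbour of Krt7, had -0.39 (adjusted p = 0.140, edgeR). Krt23, on the far side of Krt20 from Krt12, rose with 2.58 (adjusted p = 2.54e-06, edgeR). Krt20 was thus near the floor between a gene that fell and a gene that rose. Krt78 and Krt8 do not overlap in the deposited coordinates. The 86 bases between them are more than the read length of 50 bases, so a contiguous read could not lie in both.

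**Figure D3:**
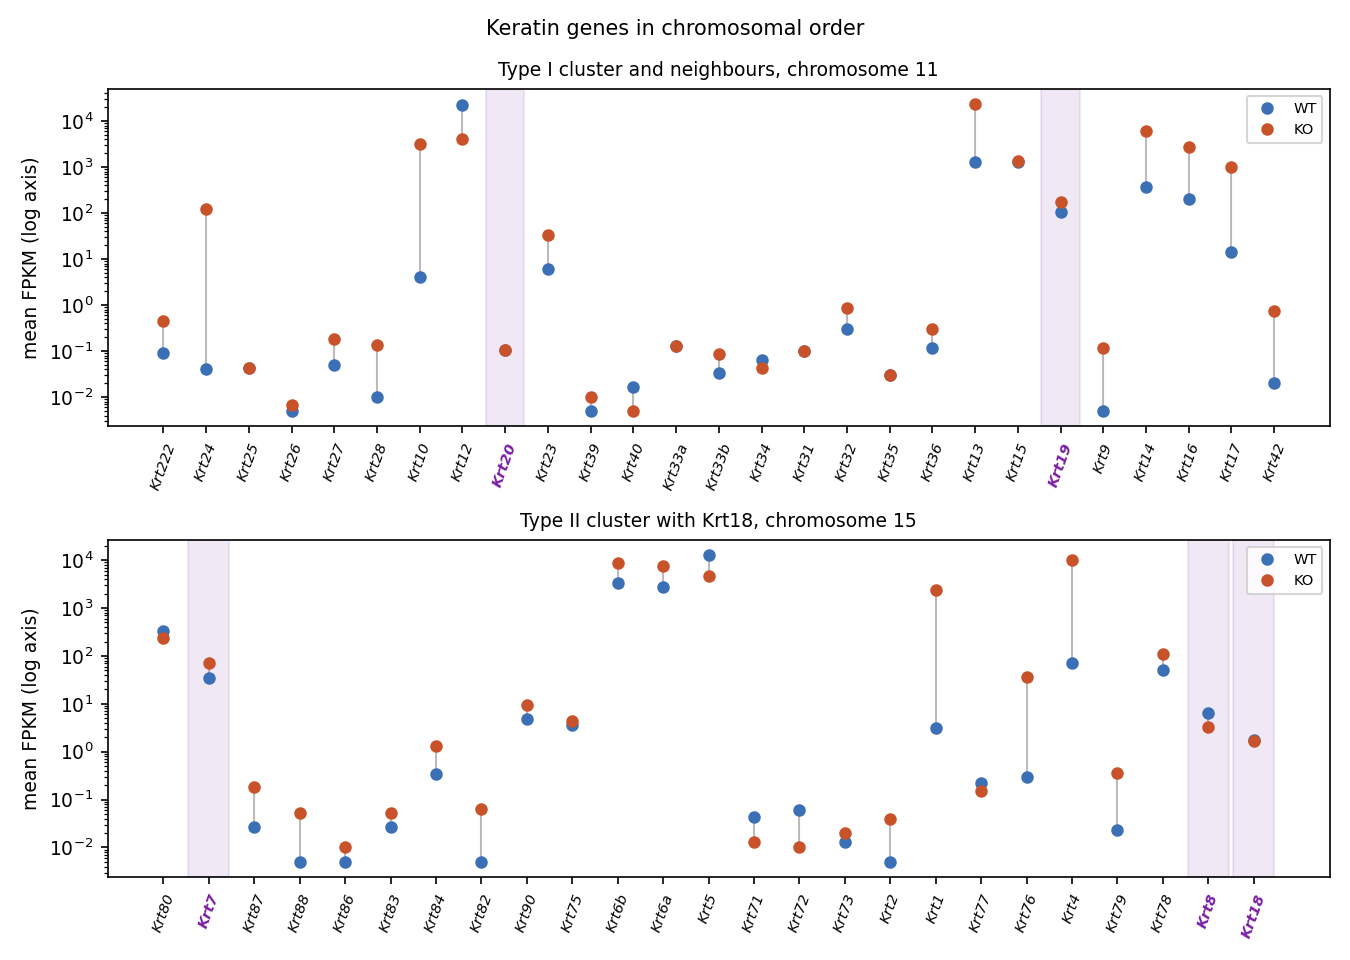
Mean FPKM of the numbered keratin genes in their order along chromosome 11 (top) and chromosome 15 (bottom), on a log axis, with WT in blue, KO in red and the members shaded. Values under 0.005 FPKM are drawn at 0.005. The gaps between WT and KO are short for the members beside those of Krt10, Krt13, Krt1 and Krt4. They are also short for other keratins, such as Krt15 and Krt80.

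Proteins that tie keratin filaments to desmosomes and other structures or regulate them were compared from a list of 19 genes, all tested. Of these, 6 were higher, 9 lower and 4 did not pass, with a median log2 fold change of -0.04. Plec, which encodes plectin, a linker of intermediate filaments, fell from 602 ± 31.2 to 256 ± 44.6 CPM (SD, n = 3 in each), or -1.23 as log2 fold change (adjusted p = 1.02e-04, edgeR). Evpl (envoplakin) and Tchp (trichoplein, which binds keratins 8 and 18) fell with -1.17 and -1.09. Fam83h, a scaffold protein of keratin filaments, fell with -0.80, and Csnk1a1, the casein kinase that it recruits there, rose with 0.58. Sfn (14-3-3 sigma) and Pkp1 (plakophilin 1) rose with 0.91 and 0.77, while Dsp (desmoplakin) and Jup (plakoglobin) did not pass.

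A list of epithelial surface and junction genes was compared next, drawn up because the members are named for simple epithelia. Its genes are not confined to simple epithelia. Cdh1, Cldn4, Cd24a and Cldn7 had WT means of 544, 410, 369 and 269 CPM in this stratified tissue. All 9 listed genes were tested, and 3 were higher and 6 lower, with a median log2 fold change of -0.54. Cldn3, Prom1 and Cldn7 fell, with log2 fold changes of -1.68, -1.64 and -1.26. Epcam, a surface protein of simple and basal epithelial cells, fell from 68.8 ± 2.50 to 47.2 ± 6.86 CPM (SD, n = 3 in each), or -0.54 as log2 fold change (adjusted p = 0.00382, edgeR). Muc1 (a membrane mucin), Cd24a and Tspan8 rose, with 1.01, 0.84 and 2.2.

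Markers of other cells that can express these keratins were measured in the same libraries. Goblet cells of the conjunctiva express keratins 7, 8, 18 and 19, and of 8 listed markers 7 were in the table and 6 tested, with 4 higher and 1 lower in KO. Muc5ac, their secreted mucin, had 0 counts in all WT libraries and 141, 15 and 214 counts in KO. The mean count of the KO libraries was 41.1 times the floor of 3 counts, with KO replicate 2 far below that mean. Spdef, a transcription factor of goblet cells, had 0.137, 0.279 and 0.331 CPM in WT and 10.9, 3.51 and 10.2 CPM in KO. KO replicate 2 was lowest for Muc5ac and Spdef and also for Krt18, whereas Krt7 and Krt19 were higher there than in KO replicate 1. The summed level of the list was between 155 and 176 CPM in WT and between 60.3 and 112 CPM in KO, since Fcgbp, its most abundant gene, fell with a log2 fold change of -1.51. The part of goblet cells in the member values was not tested.

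Merkel cells, touch receptors of the epidermis, contain keratin 20. Of 6 listed markers 3 (Atoh1, Insm1 and Chga) had 0 counts in all WT libraries. Atoh1, the defining transcription factor of these cells, had 6, 0 and 2 counts in the KO libraries. Only 2 of the 6 genes were tested, and they went opposite ways. Sox2 was counted at 0, 1 and 0 in the WT libraries, against 1092, 760 and 877 in the KO libraries, while Piezo2 fell with a log2 fold change of -4.77. The list summed to between 102 and 164 CPM in WT and between 44.4 and 61.0 CPM in KO.

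The lists for meibomian gland, corneal endothelium, stroma, vessels and immune cells had 2, 2, 4, 1 and 3 genes higher in KO out of 3, 3, 5, 1 and 5 tested, and 1 gene was lower in each of the stromal and immune lists (Pdgfra and Itgam). The meibomian genes summed to between 4.81 and 6.56 CPM in WT and between 12 and 15.1 CPM in KO, with Awat1 and Pparg at 0 in all WT libraries. In the KO libraries Awat1 had 1, 0 and 0 counts and Pparg 6, 8 and 12, and neither was tested. Far2 rose from a mean of 0.531 to 6.17 CPM and Awat2 from 0.295 to 0.736 CPM, while Soat1 did not pass (adjusted p = 0.11, edgeR). The endothelial genes summed to between 21.2 and 30.7 CPM in WT and between 40.5 and 78.2 CPM in KO. Within that list Tfap2b and Col8a1 rose, from means of 9.8 and 3.79 to 42.5 and 12.8 CPM. Slc4a11 did not pass, with means of 12.1 CPM in WT and 9.82 CPM in KO (adjusted p = 0.159, edgeR). Col8a2 had at most 2 counts in any library. The stromal genes held between 13.3 and 16.8 CPM in WT and between 14.0 and 23.4 CPM in KO, with Lum at 0 in WT. Within that list Pdgfra fell from a mean of 13 to 1.2 CPM, while Dcn (decorin) rose from 0.031 to 4.53 CPM. The vessel genes held at most 0.896 CPM in any library, with Kdr at 0 in WT. The immune genes held between 266 and 336 CPM in WT and between 189 and 265 CPM in KO, mostly from Itgam, which fell with a log2 fold change of -0.60. The leukocyte genes Ptprc, Csf1r and Lyz2 rose, from means of 0.402, 0.589 and 0.0625 CPM to 5.27, 7.58 and 9.39 CPM. Whether any of these moved the members was not tested.

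Epidermal genes also differed among the KO libraries. Krt1, a keratin of the upper epidermis, had 10300, 2760 and 5060 CPM in the KO libraries, and Flg (filaggrin) had 1950, 286 and 340 CPM. KO replicate 1, the highest for both, was the lowest KO library for Krt7, Krt8 and Krt19. The summed epidermal list (Krt1, Krt10, Lor and Flg, 4 of 4 tested genes higher) was 22700 CPM in KO replicate 1 and 10100 and 13500 CPM in the other KO libraries, against 15 to 20.1 CPM in WT. The part of this difference in the member values was not tested.

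**Figure D4:**
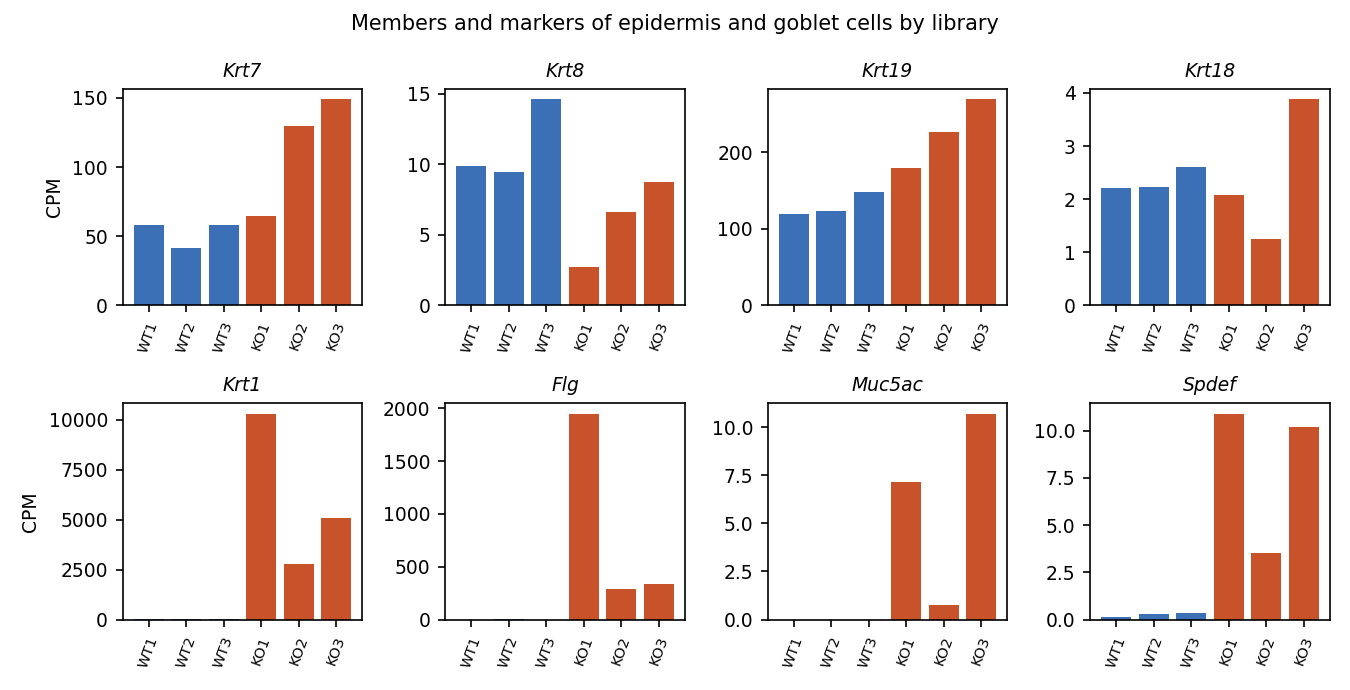
CPM in each library (WT in blue, KO in red, linear axes from 0) for 4 members, for the epidermal genes Krt1 and Flg, and for the goblet cell genes Muc5ac and Spdef. KO replicate 1 is highest for Krt1 and Flg and the lowest KO library for Krt7, Krt8 and Krt19, and KO replicate 2 is lowest in KO for Krt18, Muc5ac and Spdef.

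Finally, the tested genes with the most similar pattern to each member were listed, by the root mean square difference of log2(CPM + 1) over the 6 libraries after centring each gene. For Krt8 these were Clca4b, Akr1b7 and Pkp2, with differences of 0.209, 0.214 and 0.230. Pkp2 encodes plakophilin 2, a desmosomal protein of simple epithelia and of basal cells, and had 3.66, 4.23 and 7.19 CPM in WT and 1.62, 2.76 and 3.49 CPM in KO (log2 fold change -0.94, adjusted p = 0.0422, edgeR). For Krt19 they were Slco4c1, Ifitm1 and Amhr2 (0.0408, 0.0680 and 0.0835), and Ifitm1 was the only abundant gene among these, with a log2 fold change of 0.68. For Krt7 they were Lilr4b, Cd14 and G0s2 (0.216, 0.223 and 0.242), and for Krt18 Oit1, Gm40595 and Ndrg1 (0.103, 0.114 and 0.132). The added 1 shrinks differences of genes with low CPM. Likeness to Lilr4b, G0s2, Slco4c1, Amhr2 or Gm40595, with under 2 CPM in each group, is thus likeness on this scale only. The log2 fold changes of Lilr4b and G0s2 were 7.8 and 3.22, beside 1.13 for Krt7. Those of Slco4c1 and Amhr2 were 1.62 and 3.15, beside 0.79 for Krt19.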

How the data were processed

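Per the study's methods, total RNA of the separated corneal epithelium was depleted of ribosomal RNA. It was sequenced on a BGISEQ platform as single-end reads of 50 bases by the same methods, while the labels name an Illumina kit. The authors aligned reads with Bowtie2 2.2.5 and estimated gene levels with RSEM 1.2.12. The deposited table holds RSEM estimated counts, FPKM (per effective length and library total) and TPM. Of the deposited TPM, only the sum per library was checked. The submitters' notes name mm9, whereas the table's coordinates carry GRCm38 accessions and were used as such. RSEM shares reads among similar genes, so estimated counts need not be whole. The authors' group averages, log2 fold changes and p-values in the same table were not used.

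Counts were rounded and fitted with edgeR 4.0.16 (R 4.3.3, TMM, filterByExpr, glmQLFit and glmQLFTest, genotype as the only term). SE was the absolute log2 fold change over the square root of F. CPM was scaled by TMM factors. Alternatives were DESeq2 1.42.0, limma 3.58.1 on log2(FPKM + 1) and log2(FPKM + 0.1), RLE factors, totals only, TMM without the 20 highest genes, no filter, a mean count of at least 50, a replicate block, and each library left out. The fit was also run on simulated data with the same dispersion for all genes and known changes in a small part of them. In these data 62.0% of genes tested were called, so that run did not test the fit in this setting. Members and lists were chosen with earlier results of these data known. Genes named were the members, listed genes, neighbouring keratins and the 3 most similar genes per member. Of the listed markers, Cdh5, Elovl3, Mc5r and Tff3 were not analysed here. Nothing in the labels ties WT to KO samples. Other steps used Python 3.11.15, pandas 2.3.3, scipy 1.17.1 and matplotlib 3.10.9.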

Additional observations from a re-analysis of the deposited data

How the results depend on the processing

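Krt7 and Krt19 kept their direction and an adjusted p of 0.05 or less in the 15 alternative fits. Krt8 kept its direction in 15 fits but its call did not settle. It passed with DESeq2 (log2 fold change -0.90), with totals only (-0.99), with limma on log2(FPKM + 1) (-0.89) and on log2(FPKM + 0.1) (-1.11) and without KO replicate 3, and ranged from -1.28 to -0.55 when each library was left out. The sign of Krt18 turned with totals only (-0.06), with limma on log2(FPKM + 1) (-0.10) and log2(FPKM + 0.1) (-0.19), and without KO replicate 3 or, narrowly, WT replicate 1, over a range from -0.49 to 0.35. The cause was not tested. Krt18 was not tested at a mean count of at least 50, and Krt20 could be fitted only without the filter. The share of the 5 genes among keratins was 0.331% in WT and 0.338% in KO by FPKM, which divides by length. The number of genes called over the table stayed between 7100 and 8714. Totals only moved the split of all calls from 4231 higher and 4022 lower to 3706 and 4632.

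Replicate numbers occur in both genotypes, but the animals differ. Deviations of same-numbered libraries from their group means correlated at 0.0646, -0.0217 and 0.064. Only WT replicate 3 and KO replicate 1 correlated best with their own number. The highest values were between WT replicate 1 and KO replicate 2 (0.0987) and between WT replicate 2 and KO replicate 3 (0.0798). With the replicate number as a block, Krt8 had a log2 fold change of -1.0 (adjusted p = 0.0178, edgeR) and Krt18 -0.07, and 8083 genes were called. The block changed no other member's call. Counts were lowest for Krt18 and Krt20, at most 78 and 6 in a library.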

Other observations

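Intermediate filament genes other than keratins were compared through 9 listed genes, of which 7 were tested, with 5 higher and 2 lower in KO. Lmna, which encodes lamins A and C of the nuclear envelope, rose from 138 ± 14.5 to 399 ± 60.3 CPM (SD, n = 3 in each), or 1.53 as log2 fold change (adjusted p = 3.77e-05, edgeR). The B-type lamin genes Lmnb1 and Lmnb2 fell, with -1.05 and -0.60. Vim (vimentin) and Synm (synemin) rose with 3.51 and 1.26, though Vim stayed at or under 14.3 CPM in every library. Nes and Bfsp1 rose with 0.81 and 0.54, and Des and Prph had too few counts to be tested.

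Among 12 transcription and splicing factors of epithelia, all tested, 2 were higher, 4 lower and 6 did not pass. Ovol1 and Grhl3, factors of epidermal differentiation, rose with log2 fold changes of 1.64 and 0.86. Elf3, an ETS factor of simple and surface epithelia, fell from 1000 ± 127 to 468 ± 65.1 CPM (SD, n = 3 per group; log2 fold change -1.10, adjusted p = 2.66e-04, edgeR). Ovol2, Grhl2 and Esrp2 fell with -1.24, -0.72 and -0.34. Ehf, Grhl1, Klf4, Klf5, Esrp1 and Trp63 did not pass (adjusted p from 0.0867 to 0.955, edgeR).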
